A study of Mus musculus with 6 samples.

Results

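Bone marrow-derived mast cells (BMMCs) grown from BALB/c or C57BL/6 mice carried transcripts of a broad but selective set of the G protein-coupled receptors for chemokines, complement fragments, leukotrienes, prostaglandins, histamine and sphingosine 1-phosphate. The set described here is a list of 41 mouse receptor genes chosen by name, among 35297 genes in the deposited tables. Of the 41, 24 had enough reads to be tested, among 12461 genes tested in all, and 17 did not. The receptors for complement fragments C3a and C5a, for histamine through the H2 receptor and for sphingosine 1-phosphate through its receptor 1 were higher in C57BL/6 BMMCs. Among them C5ar1, C5ar2, Hrh2 and S1pr1 had enough reads to be tested only through the C57BL/6 cells, which favoured finding them higher there. C5ar1 and S1pr1 had few reads, at most 22 and 39 in a library. The most abundant receptors, Cx3cr1 and Ptger3, were shared by both strains.

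Bone marrow of naive wild type mice was cultured with the factors IL-3, IL-9 and TGF-β1 and with stem cell factor, and RNA was taken on day 20. There were 3 libraries of BALB/c cells (S9, S10 and S11) and 3 of C57BL/6 cells (S12, S13 and S14). The study compared the strains to characterise the phenotype of their mast cells. The study describes the libraries of a strain as biological replicates of cultured cells, without saying which mouse or culture each came from, and BMMCs are cells grown in vitro rather than mast cells of a tissue.

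Receptors of this kind span the membrane with several helices and pass the binding of a soluble mediator to a heterotrimeric G protein inside the cell. Gi-coupled receptors, which include the chemokine receptors, lower cyclic AMP and drive migration, Gq-coupled receptors raise calcium through phospholipase C beta, and Gs-coupled receptors raise cyclic AMP, which restrains mast cell degranulation. Mast cells both make many of these mediators (histamine, leukotrienes, prostaglandins and chemokines) and respond to them, and the receptors that they carry differ between mucosal and connective tissue mast cells.

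Salmon, the program the authors used, gives for each transcript an estimated read count, often with a fraction because shared reads are divided, and a TPM value, a share of all transcripts that takes transcript length into account. Both were summed over the transcripts of a gene. Libraries held between 28273365 and 37100869 reads on genes. CPM below is the count scaled to a common library size, corrected by the TMM method, and can be compared between libraries but not between genes of unequal length, and fold changes are C57BL/6 over BALB/c on the log2 scale from edgeR's quasi-likelihood test, with p-values adjusted by Benjamini and Hochberg's method over the 12461 genes. A gene was called at an adjusted p under 0.05 and a fold change above 2. The mast cell genes, such as Kit, Fcer1a, Cpa3 and Gata2, were all measured, 10 of 10, with a summed level of between 30590 and 33680 CPM in BALB/c and between 33820 and 35850 CPM in C57BL/6 libraries. Of these 10, Tpsb2 and Hdc were called, both higher in C57BL/6, beside 7.73% of all genes.

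Genes of other blood cells were also followed, since bulk RNA cannot tell fewer cells of a type from less RNA per cell. Of 8 basophil genes, all tested, 4 were called higher in C57BL/6 (Mcpt8, Prss34, Cebpa and Ccl9), beside 7.73% of all genes, with a summed level of between 405.5 and 417.8 CPM in BALB/c and between 512.3 and 523.4 CPM in C57BL/6. Prss34, Cebpa and Ccl9 entered the test only through the C57BL/6 libraries, so that the filter favoured 3 of these 4 calls. Most of the difference between the sums lay in Mcpt8, at 83.95 ± 3.74 CPM in BALB/c and at 182.6 ± 2.90 CPM in C57BL/6, while Il18r1 was lower in C57BL/6, at 9.47 ± 0.759 CPM against 13.8 ± 2.04 CPM (SD, n = 3 each; adjusted p = 0.00415, edgeR), and Cd200r3 did not pass the test, at 296.6 ± 6.53 CPM against 310.3 ± 4.67 CPM. Of 8 macrophage genes, Adgre1 and Cd68 were tested and were called higher in C57BL/6, beside 7.73% of all genes. Adgre1 entered the test only through the C57BL/6 libraries. Another 4 (C1qa, C1qb, C1qc and Csf1r) had 0 reads in every library. The macrophage list summed to between 0.705 and 1.63 CPM in BALB/c and between 13.3 and 13.9 CPM in C57BL/6. Of 6 dendritic cell genes, 1 was tested, Itgax, and the list summed to between 7.73 and 8.59 CPM in BALB/c and between 37.1 and 38.9 CPM in C57BL/6, with Clec9a and Siglech at 0 reads throughout. Of 6 erythroid genes, 1 was tested, Hbb-bt, and it was called higher in C57BL/6, beside 7.73% of all genes. It had 0 reads in the BALB/c libraries and entered the test only through the C57BL/6 libraries. The erythroid list summed to at most 6.19 CPM. None of 8 neutrophil genes (at most 4 reads in any library) and none of 7 eosinophil genes (at most 15 reads) had enough reads to be tested, and the 1 T or NK cell gene tested of 8 was not called. The basophil, macrophage and dendritic cell sums thus moved in the same direction as the receptors called higher in C57BL/6, and their part in the receptor results was not tested. Library S11 stood apart by 0 reads on Xist, the RNA that coats an inactive X chromosome, against between 7224 and 9305 in the other libraries. The Y-linked genes Ddx3y, Eif2s3y and Kdm5d had 0 reads in every library, S11 included, and Uty had at most 4. Without S11 the test again called 8 receptors higher in C57BL/6 and 1 in BALB/c.

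Of the 24 receptor genes tested, 9 were called, against 13.3% of all genes tested. The 8 higher in C57BL/6 were Ccr1, Ccr2, Cxcr5, C3ar1, C5ar1, C5ar2, Hrh2 and S1pr1, where 7.73% of all genes were higher in C57BL/6. The 1 higher in BALB/c was Ccr8, where 5.54% of all genes were higher in BALB/c. Another 8 passed the adjusted p but not the fold threshold, 5 higher in C57BL/6 (Ccrl2, Cxcr2, Ltb4r1, Ltb4r2 and Cysltr2) and 3 higher in BALB/c (Cx3cr1, Ptger4 and S1pr2), so that 17 passed the adjusted p, a criterion met by 52.9% of all genes. The 7 that did not pass it were Cxcr4, Ptafr, Ptger1, Ptger3, Hrh1, Hrh4 and S1pr4. For 17 of the 24, the BALB/c and the C57BL/6 libraries did not overlap, against 61.9% of all genes. The median log2 fold change of the 24 was 0.38, beside -0.01 over all genes, and the median of its size without sign was 0.51, beside 0.24. C5ar1, C5ar2 and S1pr1 entered the test only through the C57BL/6 libraries and Ccr8 only through the BALB/c libraries. These 4 thus had to differ to be tested at all. Hrh2 stood over the filter's cutoff in only 2 BALB/c libraries, so it too entered the test only through the C57BL/6 libraries. The filter thus favoured its call as well. C5ar1, C5ar2, Hrh2, S1pr1 and Ccr8 could not be tested when at least 10 counts were required in every library, and 4 receptors were then called higher in C57BL/6 and 0 in BALB/c.

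**Figure D1:**
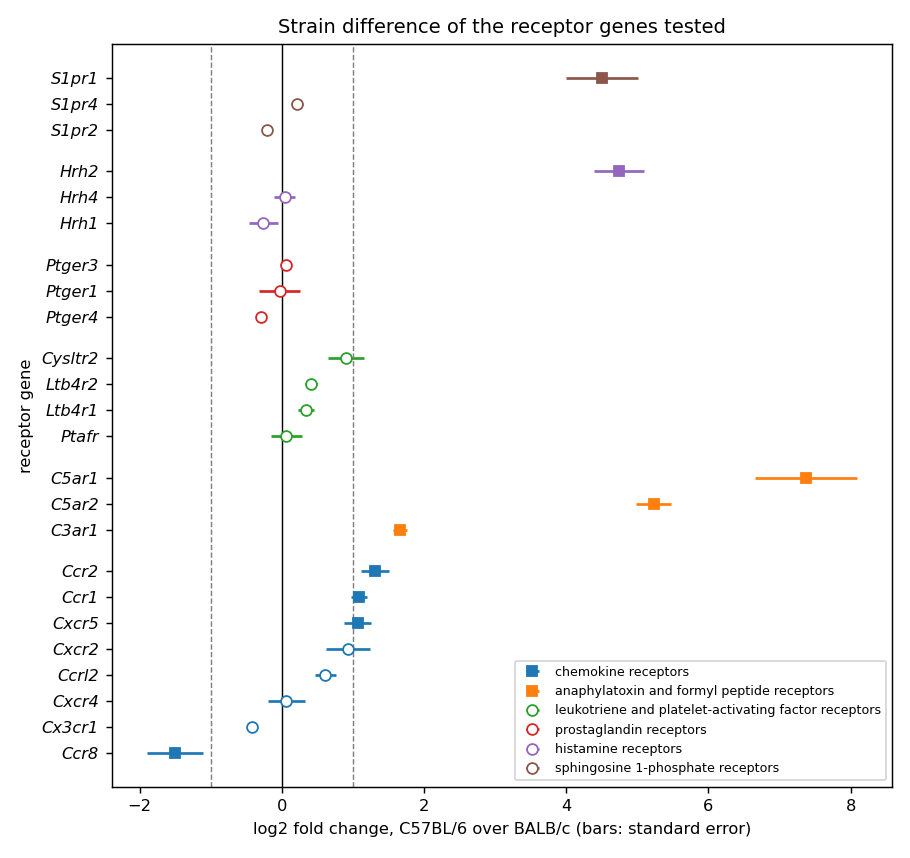
Strain difference (horizontal axis, log2 of C57BL/6 over BALB/c, bars are standard errors) of the 24 receptor genes tested, grouped and coloured by receptor family, with filled squares for the 9 genes called and dashed lines at a 2-fold change. C5ar1, C5ar2, Hrh2 and S1pr1 lie far to the right, C3ar1, Ccr2, Ccr1 and Cxcr5 lie between 1.07 and 1.67, and Ccr8 is alone past the line on the left. The position of C5ar1 is a fitted value that depends on how 0 reads in BALB/c are handled.

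By level, 2 receptors dominated. Cx3cr1, the receptor of the membrane-bound chemokine fractalkine, stood at 89.2, 96.9 and 78.3 TPM in the BALB/c libraries S9, S10 and S11 and at 62.7, 55.6 and 57.1 TPM in the C57BL/6 libraries S12, S13 and S14. Ptger3, the Gi-coupled EP3 receptor of prostaglandin E2, stood at 72.8, 73.4 and 70.3 TPM in BALB/c and at 69.6, 62.6 and 67.5 TPM in C57BL/6. Cx3cr1 was above Ptger3 in every BALB/c library, while the ranges of both genes overlapped in C57BL/6. Together they held 67.6% ± 0.796 (SD, n = 3) of the summed TPM of the 41 receptors in BALB/c against 56.4% ± 1.29 (n = 3) in C57BL/6. The strains did not overlap in this share, and an exact two-sided permutation test gave p = 0.1, the smallest that 3 against 3 libraries allow.

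The next receptors in BALB/c were Ptger4 (19.2 TPM), S1pr4 (12.2), S1pr2 (10.2) and C3ar1 (7.43), and in C57BL/6 C3ar1 (20.8 TPM), Ptger4 (13.9), S1pr4 (12.5) and S1pr2 (7.73). C3ar1 thus went from the sixth place to the third. In BALB/c the ranges of the libraries overlapped between C3ar1 and Ltb4r1 and between Ltb4r1 and Ltb4r2, but not between any neighbours above C3ar1. In C57BL/6 the neighbours from C3ar1 down to Ltb4r2 did not overlap, and Ltb4r2 overlapped with Ccr2. Hrh2 was among the lowest receptors in BALB/c, at 0.207 TPM, and took the tenth place in C57BL/6, at 4.63 TPM.

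**Figure D2:**
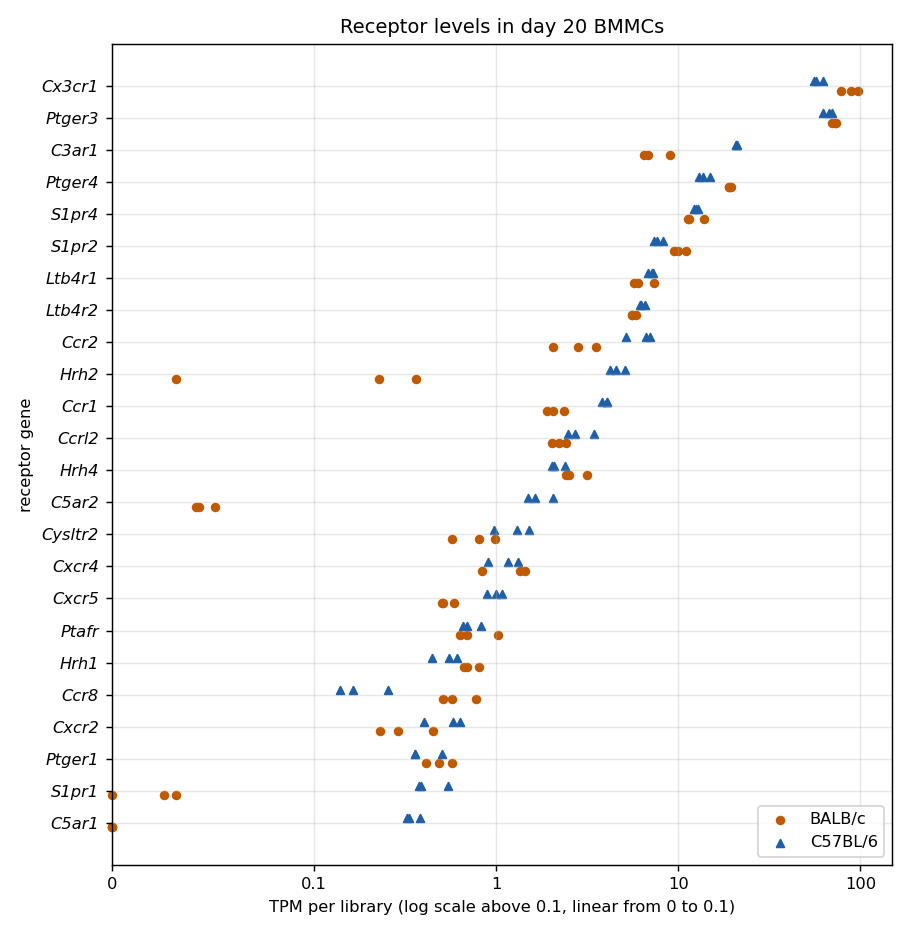
TPM of the 24 receptor genes tested in each library (horizontal axis, log scale above 0.1 and linear from 0 to 0.1), with circles for the 3 BALB/c and triangles for the 3 C57BL/6 libraries, ordered by the higher strain mean. Cx3cr1 and Ptger3 lie to the right of all others, and the triangles of Hrh2, C5ar2, S1pr1 and C5ar1 lie far to the right of their circles.

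Summed by family, anaphylatoxin receptors were at 7.48 ± 1.37 TPM in BALB/c against 22.9 ± 0.540 TPM in C57BL/6, and histamine receptors at 3.63 ± 0.214 and 7.33 ± 0.185 TPM (SD, n = 3 each). The chemokine receptors were at 98.0 ± 9.02 and 74.5 ± 3.96 TPM, most of it Cx3cr1, without which they summed to 9.88 ± 0.823 and 16.01 ± 0.837 TPM, the opposite order. The prostaglandin receptors were at 91.9 ± 1.82 and 80.9 ± 4.07 TPM. None of these 4 families overlapped between the strains, which gives p = 0.1 in an exact two-sided permutation test, the smallest possible. In CPM the prostaglandin receptors did overlap, with sums between 139.6 and 141.3 CPM for BALB/c libraries and between 133.5 and 141.6 CPM for those of C57BL/6. In TPM the leukotriene and platelet-activating factor receptors and the sphingosine 1-phosphate receptors overlapped. So did the sum of all 41, at 237 ± 13.5 TPM in BALB/c against 221.7 ± 8.07 TPM in C57BL/6. In CPM the leukotriene and platelet-activating factor receptors did not overlap. They summed to between 15.2 and 16.9 CPM in BALB/c and between 19.4 and 21.7 CPM in C57BL/6. For all 41 the sums were between 436.1 and 485 CPM in BALB/c and between 479.7 and 500.4 CPM in C57BL/6. These overlapped, with the C57BL/6 range the higher.

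The receptors of the complement fragments moved together. C3ar1, the receptor of C3a, was at 25.9, 19.8 and 19.3 CPM in BALB/c and at 68.1, 70.1 and 67.9 CPM in C57BL/6. The C57BL/6 libraries were close to each other and all above the BALB/c libraries. Its log2 fold change was 1.67 (SE 0.10, adjusted p = 1.22e-06, edgeR), and it lay between 1.38 and 1.81 over 17 alternative settings. C3ar1 was the highest of the receptors called in both strains.

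C5ar1, the signalling receptor of C5a, had 0 reads in each BALB/c library and 22, 17 and 21 reads in the C57BL/6 libraries. With 3 counts taken as the upper limit for a library without reads, C5ar1 was at least 6.95-fold higher in C57BL/6 (adjusted p = 0.000132, edgeR). C5ar2, the second receptor of C5a, which does not couple to G proteins, had 3, 4 and 4 reads in BALB/c against 157, 114 and 135 in C57BL/6. The ratio of C57BL/6 to BALB/c was 38.8 with a 95% exact interval of 21.5 to 78.3, which covers counting error only, and the adjusted p was 3.17e-07 (edgeR). Per length, C5ar2 was also the higher of the C5a receptors in C57BL/6, at 1.72 ± 0.289 TPM against 0.346 ± 0.0312 TPM for C5ar1 (SD, n = 3 each), although both stayed well below C3ar1. Fpr1 and Fpr2, the receptors of formylated bacterial peptides, had 0 reads in all libraries. The macrophage, dendritic cell and basophil sums were higher in the C57BL/6 libraries as well, with Csf1r, C1qa and Siglech at 0 reads, and their part in these values was not tested.

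C5ar1 (chr7:15980668-15993465) and C5ar2 (chr7:15968503-15978121) are neighbours on the minus strand of chromosome 7 in GRCm39, 2547 bases apart. Of the other genes tested within 100 kb of them, Meis3, a homeobox gene, was called too, with a log2 fold change of 2.29 (adjusted p = 2.38e-05, edgeR), at 48064 bases from C5ar2. Dhx34, Inafm1, Ccdc9, Bbc3 and Sae1 in the same stretch were not called and had log2 fold changes between -0.12 and 0.60. Around the 9 called receptors, 19 genes within 100 kb were tested, and 3 were called, beside 13.3% of all genes. C5ar1 and C5ar2 are among these 3 as each other's neighbours, so that Meis3 was the only one not already called as a receptor. Neighbours of the other receptors were not examined. Meis3 and its neighbours were singled out after their values were seen.

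To show where the complement receptors that moved together start, the 250 bases before a start of each are given below from RefSeq (GRCm38.p6, minus strand, written 5′ to 3′). Capitals mark matches, on either strand, to short words known as binding motifs: AGATAA for GATA factors, TTGCNNAA for C/EBP, AGGAAGT for PU.1, TGTGGT for RUNX, CANGTG for the E-box, TTCNNNGAA for STAT and TGANTCA for AP-1.
C3ar1, chr6:122856158-122856407: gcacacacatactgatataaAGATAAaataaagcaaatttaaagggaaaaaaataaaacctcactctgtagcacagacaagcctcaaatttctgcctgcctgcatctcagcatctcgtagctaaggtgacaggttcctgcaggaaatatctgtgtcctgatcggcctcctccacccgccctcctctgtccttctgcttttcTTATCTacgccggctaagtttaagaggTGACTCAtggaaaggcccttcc
C5ar1, chr7:16259339-16259588: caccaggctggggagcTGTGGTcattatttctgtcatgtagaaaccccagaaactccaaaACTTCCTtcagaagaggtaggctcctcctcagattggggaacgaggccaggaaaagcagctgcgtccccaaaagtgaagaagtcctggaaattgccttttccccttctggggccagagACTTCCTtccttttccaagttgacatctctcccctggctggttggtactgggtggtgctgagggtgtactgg
C5ar2, chr7:16244155-16244404: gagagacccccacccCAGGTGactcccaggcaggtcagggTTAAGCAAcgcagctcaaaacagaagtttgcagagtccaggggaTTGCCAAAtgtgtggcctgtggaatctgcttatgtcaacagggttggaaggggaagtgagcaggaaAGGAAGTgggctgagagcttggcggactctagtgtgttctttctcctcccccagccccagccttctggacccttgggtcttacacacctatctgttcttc

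C3ar1 held a GATA word at 230 to 225 and again at 49 to 44 bases before the start, and an AP-1 word at 22 to 16. C5ar1 held the PU.1 word at 190 to 184 and at 72 to 66, and a RUNX word at 234 to 229. C5ar2 held the PU.1 word at 100 to 94, an E-box and C/EBP words at 210 to 203 and 166 to 159. A second start listed for C5ar2 (window chr7:16242332-16242581) held none of the words. Such words are common: of 32851 windows of this length in the table, 9.99% held the GATA word, 9.56% the C/EBP word, 7.69% the PU.1 word, 14.05% the RUNX word, 39.5% the E-box, 7.02% the STAT word and 6.75% the AP-1 word. Promoter windows were found for 33 of the 41 receptors and 7 of the 9 called. Of the 41 windows of the 33 receptors, 9 held the GATA word, 4 the C/EBP word, 8 the PU.1 word, 8 the RUNX word, 15 the E-box, 2 the STAT word and 6 the AP-1 word. Of the 9 windows of the 7 called receptors, 3 held the GATA word, 1 the C/EBP word, 4 the PU.1 word, 2 the RUNX word, 2 the E-box, 0 the STAT word and 1 the AP-1 word. The 4 with the PU.1 word belong to 3 receptors, since 2 windows of Hrh2, 4 bases apart, share the same word. A match is a description of letters and says nothing of binding.

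Hdc, the enzyme that makes histamine, was at 2.35 ± 0.543 CPM in BALB/c and at 5.34 ± 0.814 CPM in C57BL/6 (SD, n = 3 each), with a log2 fold change of 1.19 (SE 0.19, adjusted p = 0.000735, edgeR). Among the histamine receptors, Hrh2 was called and the others did not pass the test. It entered the test only through the C57BL/6 libraries, so that the filter favoured its call. Hrh2, the Gs-coupled H2 receptor known from gastric acid secretion, had 13, 2 and 30 reads in BALB/c against 338, 332 and 475 in C57BL/6. The BALB/c libraries spread widely at this depth, at 0.424 ± 0.366 CPM, yet all lay far below the C57BL/6 libraries, at 12.1 ± 1.43 CPM (SD, n = 3 each). The log2 fold change was 4.74 (SE 0.36, adjusted p = 5.58e-06, edgeR), and the ratio was 26.8 with a 95% exact interval of 19.9 to 36.9 for counting error only. Library S11 holds most of the BALB/c reads, and without it the log2 fold change was 5.61 (adjusted p = 7.06e-06, edgeR). Hrh1, the Gq-coupled H1 receptor, was at 1.57, 1.51 and 1.86 CPM in BALB/c and at 1.38, 1.63 and 1.16 CPM in C57BL/6 (log2 fold change -0.26, SE 0.20, adjusted p = 0.306, edgeR), and the strains overlapped. Hrh4, the Gi-coupled H4 receptor through which histamine attracts mast cells, was at 2.67, 2.99 and 2.58 CPM and at 3.13, 2.85 and 2.49 CPM, also with overlap (adjusted p = 0.846, edgeR). Its log2 fold change of 0.04 took the opposite sign when transcript length or plain library size was used to scale the counts.

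The reads of Hrh2 fell on a coding transcript of 2789 bases and on one of 4720 bases that RefSeq lists as non-coding. The coding transcript had 13.2, 1.74 and 19.8 estimated reads in BALB/c against 194.7, 174.9 and 236.5 in C57BL/6. The non-coding one had 0, 0 and 10.2 in BALB/c against 143.5, 157.1 and 238.7 in C57BL/6. Both were thus higher in each C57BL/6 library than in any BALB/c library, and both count in the values of the gene. Exons of Gm16578, a long non-coding RNA on the opposite strand, cover 16.8% of the exonic bases of Hrh2. The library kit keeps the strand of the RNA, but the strand setting of Salmon is not given in the sources used here. Hrh2 lies on the plus strand (chr13:54345993-54390199, GRCm39), and the 250 bases before its start in GRCm38.p6 held 1 of the words searched, for PU.1, at 45 to 39 bases before the start.
Hrh2, chr13:54191879-54192128, plus strand: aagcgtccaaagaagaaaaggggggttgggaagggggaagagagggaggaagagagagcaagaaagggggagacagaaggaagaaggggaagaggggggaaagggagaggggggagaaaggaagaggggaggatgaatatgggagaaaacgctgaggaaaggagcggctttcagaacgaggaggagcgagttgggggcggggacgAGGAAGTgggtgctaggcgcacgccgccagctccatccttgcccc

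For sphingosine 1-phosphate, a lipid that guides the traffic of white blood cells, the receptors went in different directions. S1pr1, the receptor that draws cells towards the lipid, had 2, 0 and 2 reads in BALB/c against 39, 24 and 31 in C57BL/6. The ratio was 24.7 with a 95% exact interval of 9.33 to 92.5 (counting error only), and the adjusted p was 7.28e-05 (edgeR). Even in C57BL/6 it was a minor member of the family, at 0.437 TPM. S1pr2, which takes part in mast cell degranulation, was at 20.2, 18.6 and 18.01 CPM in BALB/c and at 15.2, 16.6 and 17.3 CPM in C57BL/6, without overlap, at a log2 fold change of -0.21 (SE 0.08, adjusted p = 0.0443, edgeR). It did not pass without S9, S10, S12 or S13 (adjusted p between 0.0701 and 0.149) or with DESeq2 (0.0974). S1pr4, a receptor of blood cells, was at 17.4, 21.7 and 18.2 CPM and at 22.3, 22.1 and 22.1 CPM, at a log2 fold change of 0.22 (SE 0.08, adjusted p = 0.0560, edgeR), and did not pass the test although the libraries did not overlap. Without S10 it passed, at a log2 fold change of 0.31 (adjusted p = 0.00448, edgeR).

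Among the chemokine receptors, 8 of 17 were tested, 3 were called higher in C57BL/6 and 1 in BALB/c, beside 7.73% and 5.54% of all genes. Ccr2, the receptor of the monocyte attractants Ccl2 and Ccl7, was at 4.99, 6.88 and 8.81 CPM in BALB/c and at 17.9, 19.8 and 14.1 CPM in C57BL/6. Its log2 fold change was 1.31 (SE 0.19, adjusted p = 0.000425, edgeR). Ccr1, a receptor of inflammatory chemokines such as Ccl3, was at 3.55, 4.43 and 3.94 CPM and at 7.95, 8.83 and 8.59 CPM, at a log2 fold change of 1.09 (SE 0.11, adjusted p = 3.97e-05, edgeR). All C57BL/6 libraries lay above all BALB/c libraries for both genes. Monocytes and macrophages are known to carry both receptors, and the macrophage genes Adgre1 and Cd68 were higher in C57BL/6 too, at 9.91 ± 0.399 and 3.71 ± 0.434 CPM against 0.309 ± 0.271 and 0.913 ± 0.213 CPM (SD, n = 3 each). The other 6 genes of the macrophage list had too few reads to be tested, with Csf1r, C1qa, C1qb and C1qc at 0 reads in every library and Lyz2 and Mrc1 at no more than 2, and the part of macrophage RNA was not tested.

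Cxcr5, the receptor of the follicle chemokine Cxcl13, was at 0.879, 0.872 and 1.04 CPM in BALB/c and at 1.72, 2.03 and 2.12 CPM in C57BL/6, with a log2 fold change of 1.07 (SE 0.19, adjusted p = 0.00146, edgeR). Ccr1 and Cxcr5 stood just past the fold threshold, and with plain library size their log2 fold changes were 0.95 and 0.92 and on log2(TPM + 0.1) 0.89 and 0.78, each of which ended both calls. Ccr8, the receptor of Ccl1 known from Th2 and regulatory T cells, had 11, 16 and 15 reads in BALB/c against 4, 3 and 7 in C57BL/6. The ratio of C57BL/6 to BALB/c was 0.350 with a 95% exact interval of 0.177 to 0.655 (counting error only), and the log2 fold change was -1.50 (SE 0.39, adjusted p = 0.0107, edgeR). DESeq2 did not call Ccr8, with an adjusted p of 0.0850. Over the settings tried, the adjusted p lay between 0.000935 and 0.0865.

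Cx3cr1, the most abundant receptor of BALB/c cells, was at 222.8, 244.7 and 201.5 CPM in BALB/c and at 175.8, 163.4 and 162.7 CPM in C57BL/6. The strains did not overlap, and its log2 fold change was -0.41 (SE 0.07, adjusted p = 0.000841, edgeR), which is short of the fold threshold. Ccr8 and Cx3cr1 lie 22235 bases apart on chromosome 9 (GRCm39). Ccrl2, an atypical receptor that holds chemerin at the cell surface, was at 2.58, 2.95 and 2.61 CPM and at 4.76, 3.96 and 3.73 CPM (log2 fold change 0.61, SE 0.14, adjusted p = 0.00595, edgeR). Cxcr2, the receptor of neutrophil attractants such as Cxcl2, was at 0.879, 0.570 and 0.479 CPM and at 0.876, 1.48 and 1.33 CPM, with overlap of libraries S9 and S12 (log2 fold change 0.93, SE 0.31, adjusted p = 0.0311, edgeR). It passed the fold threshold too when S9 or S12 was left out, with log2 fold changes of 1.22 and 1.13, but no longer passed the adjusted p without S10, S11, S13 or S14 (adjusted p between 0.0904 and 0.108, edgeR). Cxcr4, the receptor of the bone marrow chemokine Cxcl12, was at 1.67, 0.973 and 1.60 CPM and at 1.16, 1.77 and 1.53 CPM, with overlap and an adjusted p of 0.862 (edgeR).

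The remaining 9 chemokine receptors on the list were not tested. Ccr6, Cxcr1, Cxcr3 and Cxcr6 had 0 reads in every library. Ccr3, the receptor of the eotaxins, had at most 5 reads in a library, and Ccr4, Ccr7, Ccr9 and Ccr10 had at most 1. At this depth a library with 0 reads allows up to 3 counts.

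The reads of Ccr2 also shifted between its listed transcripts. The transcript of 3589 bases had 0 estimated reads in each BALB/c library and 339, 247 and 238 in the C57BL/6 libraries, where it held 51.1% ± 7.22 (SD, n = 3) of the reads of the gene. The transcript of 3627 bases held 64.7% ± 11.7 of the reads in BALB/c against 30.2% ± 9.69 in C57BL/6. Both shares differed without overlap (exact two-sided permutation p = 0.1, the smallest possible). In Ptger3, the transcript of 2120 bases held 75.5% ± 2.91 in BALB/c against 79.7% ± 1.38 in C57BL/6, and that of 2031 bases 21.3% ± 3.25 and 17.2% ± 1.10, without overlap but with differences not far above the SD. Shares were described for 5 receptors with several transcripts and enough reads, with 15 transcripts, of which 7 did not overlap between the strains. The like count over all genes was not made. Shares within a gene are tied, since a gain of a transcript is a loss of others. The count is thus no result about the receptors. Salmon divides reads that fit several transcripts by an estimate, and how many bases tell the transcripts of Ccr2 apart was not examined.

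**Figure D3:**
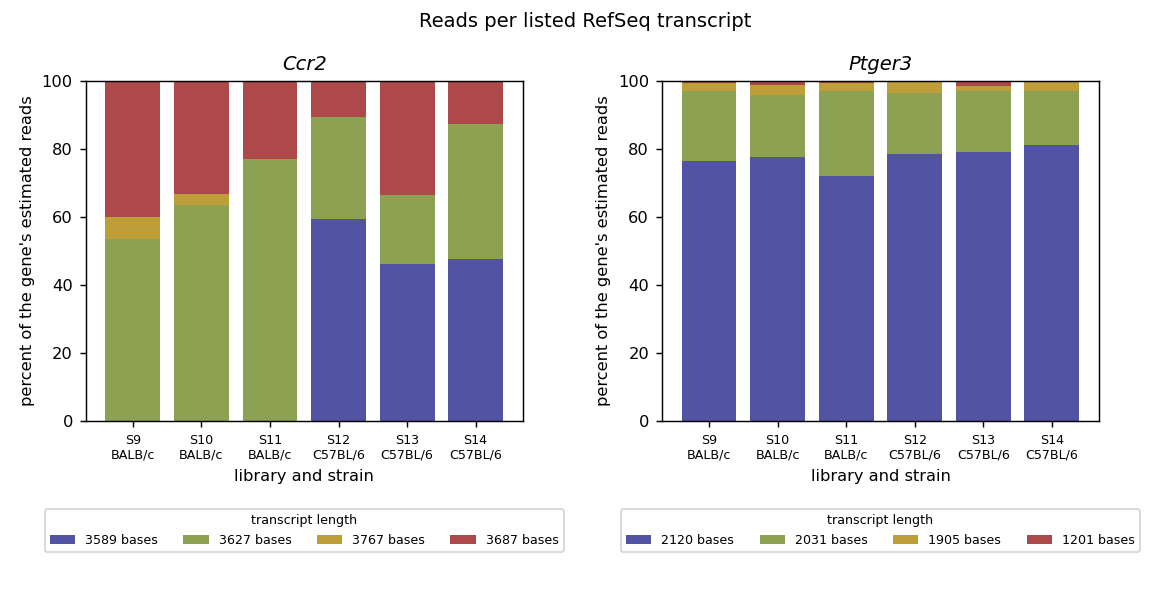
Share of the estimated reads of Ccr2 and Ptger3 (vertical axis, percent) on each listed transcript, named by its length, in each library (horizontal axis). The 3589-base transcript of Ccr2 is missing from the 3 BALB/c bars and takes between 46.2% and 59.4% of the C57BL/6 bars, whereas the bars of Ptger3 look much alike.

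Of the 5 leukotriene and platelet-activating factor receptors, 4 were tested and none was called, beside 13.3% of all genes. Ltb4r1 and Ltb4r2, the high- and low-affinity receptors of the attractant leukotriene B4, were at 4.81, 6.27 and 5.24 CPM and at 7.29, 7.89 and 7.29 CPM in BALB/c. In C57BL/6 they were at 6.82, 7.24 and 6.58 CPM and at 10.4, 9.98 and 9.58 CPM. Neither gene overlapped between the strains, and the log2 fold changes were 0.34 (SE 0.12, adjusted p = 0.0377) for Ltb4r1 and 0.41 (SE 0.08, adjusted p = 0.00269, edgeR) for Ltb4r2. Ltb4r1 did not pass the adjusted p without S9, S11, S12, S13 or S14 (adjusted p between 0.0627 and 0.108) or with DESeq2 (0.0823). Cysltr2, a receptor of the cysteinyl leukotrienes that mast cells release, was at 0.974, 1.14 and 0.745 CPM in BALB/c and at 1.81, 2.14 and 1.38 CPM in C57BL/6 (log2 fold change 0.90, SE 0.25, adjusted p = 0.0136, edgeR). It passed the fold threshold when S10 or S14 was left out, with log2 fold changes of 1.04 and 1.06, and missed the adjusted p without S11 or S13 (0.0501 and 0.0544, edgeR). Cysltr1, the other receptor of these leukotrienes, had at most 6 reads and was not tested. Ptafr, the receptor of platelet-activating factor, was at 2.45, 1.54 and 1.73 CPM and at 1.78, 2.33 and 1.89 CPM, with overlap (adjusted p = 0.825, edgeR).

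Of the 6 prostaglandin receptors, 3 were tested and none was called, beside 13.3% of all genes. Ptger3 was at 96.7, 98.5 and 96.2 CPM in BALB/c and at 104.3, 97.5 and 102.9 CPM in C57BL/6. The strains overlapped at S10 and S13, and the log2 fold change of 0.07 (SE 0.04, adjusted p = 0.193, edgeR) took the opposite sign, at -0.08, with plain library size, a setting that moved the median of all genes by -0.14. Ptger4, the Gs-coupled EP4 receptor, was at 42.5, 42.1 and 42.8 CPM in BALB/c and at 36.6, 35.3 and 32.4 CPM in C57BL/6, without overlap, at a log2 fold change of -0.29 (SE 0.05, adjusted p = 0.00149, edgeR). Ptger1, the EP1 receptor, had between 18 and 34 reads in a library, with overlap (adjusted p = 0.947, edgeR). Exons of the pseudogene Gm15937, on the opposite strand, cover 15.3% of the exonic bases of Ptger4. Ptger2, the other Gs-coupled receptor of prostaglandin E2, and both receptors of prostaglandin D2, Ptgdr and Ptgdr2, had 0 reads in all libraries.

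Mrgprb1 and Mrgprb2, Mas-related receptors of connective tissue mast cells, the latter the receptor of basic secretagogues, had at most 1 read in a library. Of 6 genes known from connective tissue mast cells, these included, 4 were tested, with Tpsb2 called higher in C57BL/6 (log2 fold change 2.32) and Mcpt4 called higher in BALB/c (log2 fold change -1.16, edgeR), beside 7.73% and 5.54% of all genes.

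The mediators of these receptors were followed with a list of 54 ligands and enzymes that form ligands, of which 28 were tested. Of these, 15 were called higher in C57BL/6 and 1 in BALB/c, with a median log2 fold change of 1.18, beside 7.73% and 5.54% of all genes tested and a median of -0.01. Ccl1, Ccl9, Ccl27a, Cxcl2 and Cx3cl1 entered the test only through the C57BL/6 libraries and Ccl5, the 1 called higher in BALB/c, only through the BALB/c libraries. The filter thus favoured these 6 calls, and the count and median that include them support no difference in the list. With at least 10 counts in every library, 10 were called higher in C57BL/6 and 0 in BALB/c. By that filter 613 of 11341 genes were called higher in C57BL/6. The list was not tested as a set. Ligands of receptors on the list were among the genes called. Ccl3, a ligand of Ccr1, was at 5.14 ± 1.62 CPM in BALB/c against 64.3 ± 16.4 CPM in C57BL/6, and Ccl9 and Ccl6, which also bind Ccr1, at 0.223 ± 0.106 and 10.8 ± 0.568 CPM and at 0.695 ± 0.155 and 26.3 ± 2.31 CPM (SD, n = 3 each). Ccl7, a ligand of Ccr2, was at 1.89 ± 0.975 and 34.1 ± 11.1 CPM, and Ccl4, another inflammatory chemokine, at 3.78 ± 0.956 and 42.8 ± 11.9 CPM.

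Cx3cl1, the ligand of Cx3cr1, had 3, 0 and 0 reads in BALB/c against 219, 202 and 231 in C57BL/6, the opposite order to its receptor. Anxa1, a ligand of the formyl peptide receptors that had 0 reads here, was at 11.3 ± 3.27 CPM in BALB/c against 76.2 ± 4.61 CPM in C57BL/6. Ptgs2, the inducible enzyme of prostaglandin synthesis, was at 1.42 ± 0.348 and 61.8 ± 15.1 CPM, with a log2 fold change of 5.44 (SE 0.23, adjusted p = 1.76e-07, edgeR). All 8 of these genes were called, with log2 fold changes between 2.75 (Anxa1) and 7.67 (Cx3cl1). The gene called higher in BALB/c was Ccl5, named after its values were seen, with 17, 17 and 31 reads in BALB/c against 0, 1 and 2 in C57BL/6. Ccl9 is on the basophil list as well, and the part of the basophil genes in the ligand values was not tested.

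**Figure D4:**
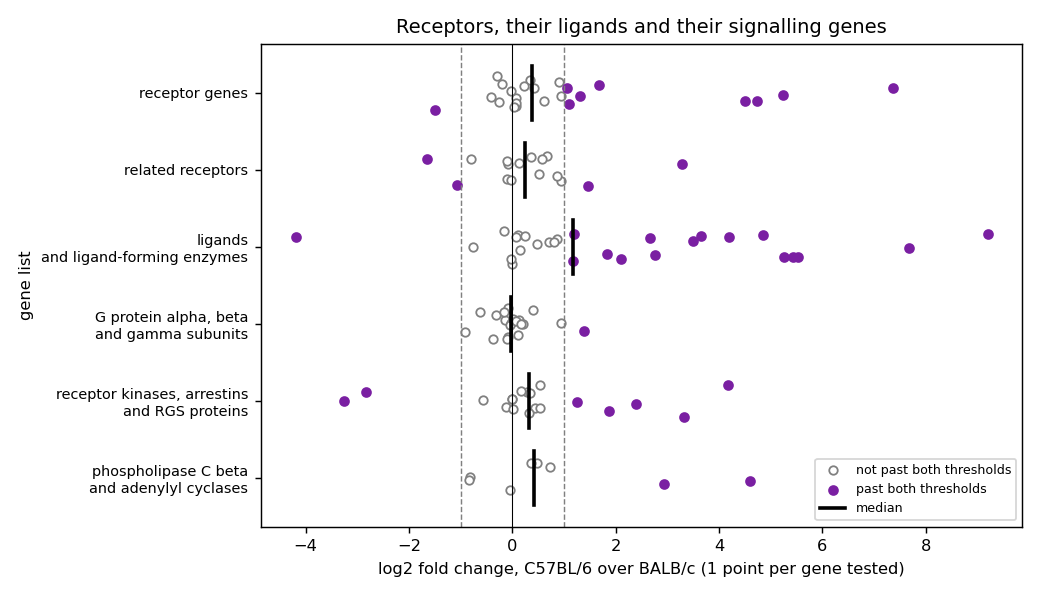
Strain difference (horizontal axis, log2 of C57BL/6 over BALB/c) of each gene tested, 1 point per gene, for the 24 receptor genes and 5 related lists, with filled points for genes past both thresholds, dashed lines at a 2-fold change and a bar at the median of each list. The list of ligands and enzymes holds the most filled points, and the G protein subunits gather around 0.

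Other receptors for mediators of this kind and the proteins behind the receptors were counted the same way. Of 59 related receptors, 16 were tested, 2 were called higher in C57BL/6 and 2 in BALB/c, with a median of 0.25, beside 7.73% and 5.54% of all genes. Ackr1, a chemokine-scavenging receptor, was at 7.99 ± 0.814 CPM in BALB/c against 22.1 ± 2.76 CPM in C57BL/6, and Ptgir, the prostacyclin receptor, named after its values were seen, had 13, 8 and 1 reads and 71, 46 and 95. Ptgir, and Htr1b, which was not called, entered the test only through the C57BL/6 libraries. Cnr2, a cannabinoid receptor, was at 20.7 ± 2.50 and 9.92 ± 0.131 CPM, and Ffar2, a receptor of short-chain fatty acids, at 17.4 ± 4.17 and 5.55 ± 0.684 CPM (SD, n = 3 each). The number called higher in C57BL/6 was 7 without S9, 6 without S12, 5 without S10 or S11, and 6 with no filter.

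Of 31 G protein subunits, 20 were tested and 1 was called (13.3% of all genes), Gnai1, an inhibitory alpha subunit, at 3.12 ± 0.238 CPM in BALB/c against 8.21 ± 1.02 CPM in C57BL/6 (log2 fold change 1.39, SE 0.13, adjusted p = 1.94e-05, edgeR). The median of the list was -0.03. With S9 left out 2 subunits were called higher in C57BL/6, and with S14 left out 1 was called higher in BALB/c. Of 24 receptor kinases, arrestins and RGS proteins, which end receptor signals, 19 were tested, 5 were called higher in C57BL/6 and 2 in BALB/c, with a median of 0.31, beside 7.73% and 5.54% of all genes. Of those called, Grk3 and Rgs3 entered the test only through the C57BL/6 libraries and Rgs11 only through the BALB/c libraries, so that the filter favoured these calls. Rgs1 was at 469.4 ± 24.7 CPM in BALB/c against 1119 ± 42.0 CPM in C57BL/6, and Rgs16 at 0.688 ± 0.305 and 12.5 ± 0.867 CPM. Rgs13, known to dampen mast cell responses, was lower in C57BL/6, at 2.56 ± 0.732 CPM against 24.3 ± 5.97 CPM (log2 fold change -3.26, SE 0.23, adjusted p = 3.98e-06, edgeR). Of 13 phospholipase C beta and adenylyl cyclase genes, 8 were tested and 2 were called, both higher in C57BL/6 (7.73% of all genes), with a median of 0.42. They were Adcy8, a calcium-stimulated adenylyl cyclase, at 1.62 ± 0.732 CPM in BALB/c against 39.3 ± 3.82 CPM in C57BL/6, and Adcy3, named after its values were seen, with 6, 4 and 0 reads and 27, 13 and 37. Adcy3 entered the test only through the C57BL/6 libraries, so that the filter favoured its call.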

How the data were processed

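RNA of day 20 BMMCs was measured with a stranded mRNA kit and paired-end reads. The authors checked reads with FastQC 0.11.5 and assigned them to transcripts with Salmon 0.8.2; the deposited tables list, by library and transcript, length, effective length, TPM and estimated count. The paper's methods name Ensembl transcripts, whereas the tables list RefSeq identifiers. The transcripts follow the reference genome, and whether sequence differences of BALB/c mice changed the assignment of their reads was not tested.

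Identifiers were matched to genes, without their version, through RefSeq's table of GRCm38.p6: 106440 of 129698 transcripts matched (82.1%). The other 23258 held between 2.69% and 3.12% of the reads and entered neither library sizes nor tests. For each gene, the estimated counts of its transcripts were added and rounded. Coordinates and exon overlaps come from GENCODE's annotation of GRCm39.

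Strains were compared in edgeR 4.0.16 (R 4.3.3) by the quasi-likelihood test, with TMM normalization, a minimum count of 10 in edgeR's filter and a model of strain; the biological coefficient of variation was 0.0665, so the number of libraries limits precision except for genes with few reads. The scripts were tested on simulated data. As alternatives, transcript length was passed as an offset to edgeR and to DESeq2 1.42.0, which was also run plainly, library sizes were scaled by upper quartiles, by DESeq2's size factors or not at all, the filter was dropped or raised to 10 counts per library throughout, TPM values were tested with limma 3.58.1 after adding 1 or 0.1 and taking log2, and the tests were repeated with unmatched transcripts kept, the adjusted p alone and each library left out. Exact permutation tests used scipy 1.17.1. The members and lists were chosen with earlier results of these data known. All 41 receptors are accounted for. From other lists, genes past both thresholds with a mean of at least 100 counts in a strain are named, up to 8 per list by size of change.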

Additional observations from a re-analysis of the deposited data

How the results depend on the processing

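Of 403 fold changes of single receptors under 17 alternatives, 338 kept their direction and their side of the adjusted p threshold (the fold threshold aside), 38 no longer passed it, 3 newly passed it and 24, in 5 receptors that did not pass the test, changed sign. The 8 receptors called higher in C57BL/6 became 4 with at least 10 counts in every library, 3 on log2(TPM + 1), 6 on log2(TPM + 0.1) or with plain library size (both without Ccr1 and Cxcr5) and 13 by the adjusted p alone, and lay between 8 and 9 with a library left out. The 1 called higher in BALB/c, Ccr8, became 0 with DESeq2 with or without the length offset, at least 10 counts in every library, log2(TPM + 1) or unmatched transcripts kept (adjusted p = 0.0501, edgeR), and 4 by the adjusted p alone. On log2(TPM + 1), C5ar1, S1pr1 and Ccr8 reached at most 0.381, 0.546 and 0.780 TPM in any library, so that a difference of 1 on that scale was out of reach. The calls of Ccr1, Ccr2 and Cxcr5 also ended there, and the cause was not tested. No called receptor lost its call when a library was left out. The median of all genes moved by -0.14 with plain library size, -0.14 on log2(TPM + 1) and -0.17 on log2(TPM + 0.1), which bears on every value below.

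Signs changed with plain library size, log2(TPM + 1) and log2(TPM + 0.1) for Cxcr4 (-0.084, -0.051 and -0.080), Ptafr (-0.081, -0.044 and -0.081), Ptger3 (-0.079, -0.12 and -0.12) and Hrh4 (-0.10, -0.22 and -0.30), and with the length offset for Hrh4 in DESeq2 (-0.13) and edgeR (-0.14). With a library left out, values lay between -0.14 and 0.21 for Cxcr4, -0.063 and 0.28 for Ptafr, -0.24 and 0.19 for Ptger1 and -0.043 and 0.13 for Hrh4. With plain library size these 4 receptors moved by the same amount as the median of all genes (-0.14), and the cause of the other changes of sign was not tested.

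Related receptors called higher in C57BL/6, 2, became 6 with no filter, 1 with at least 10 counts in every library, 1 on log2(TPM + 1) and between 2 and 7 with a library left out, and those higher in BALB/c between 2 and 3. G protein subunits higher in C57BL/6, 1, became 2 with no filter, 0 on log2(TPM + 1) and between 1 and 2 with a library left out, and those higher in BALB/c 1 with plain library size and between 0 and 1. At least 10 counts in every library left 10 of 15 ligands higher in C57BL/6 and 0 in BALB/c, 3 of 5 and 1 of 2 kinases, arrestins and RGS proteins, and 1 of 2 phospholipases and cyclases. On log2(TPM + 1) the last 2 lists had 2, 1 and 1 calls, and unmatched transcripts kept left 1 phospholipase or cyclase. No paired analysis was possible because the libraries of the strains share no replicate numbers. Depth limits receptors with few reads, such as C5ar1, S1pr1 and Ccr8, and C5ar2 in BALB/c.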
